A study of Mus musculus with 24 samples.

Results

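The 36 genes described here act in nucleotide excision repair, mismatch repair and the repair of DNA double-strand breaks, together with the sliding clamp gene Pcna and the direct reversal gene Mgmt. They were taken by symbol from a list, and all 36 were present among the 55254 genes of both count tables. Nuclear RNA came from the hippocampus of 6-month-old C57BL/6N males, whose nuclei were sorted with an antibody against the neuronal protein NeuN into NeuN+ and NeuN- fractions. Each fraction was measured in 3 replicates of 4 genotypes: wild type (WT), mice without the DNA glycosylase Mutyh (Mutyh-/-), mice without the DNA glycosylase Ogg1 (Ogg1-/-), and the double knockout (DKO, labelled Mutyh-/-xOgg1-/-) bred from both lines, which gave 24 libraries. The labels name no treatment. The study describes nuclei pooled from several animals, and whether a replicate is an animal or a pool is unclear, so the p-values measure the spread between these libraries, which may in part be technical.

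Ogg1 and Mutyh belong to base excision repair, where Ogg1 removes the oxidised base 8-oxoguanine opposite cytosine and Mutyh removes adenine that was paired with it. The genes here belong to the neighbouring repair routes. In nucleotide excision repair a distorting lesion is recognised, opened by helicases, and cut out on both sides, either across the genome or where a lesion has stalled RNA polymerase. Mismatch repair corrects wrongly paired bases, mainly after replication. Double-strand breaks are either copied from an intact sister by homologous recombination, which needs a replicated chromosome, or joined directly by non-homologous end joining, the main route in cells that no longer divide, such as neurons. The comparisons ask whether RNA of these routes differs when the glycosylases are missing, and how it is divided between the nuclear fractions.

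Libraries held between 56563586 and 96192142 counts (median 70434612). All 36 genes passed the low-count filter in both fractions. Levels are given as CPM, the count of a gene scaled to library size after TMM scaling over the 24 libraries, and differences as log2 fold changes with standard error (SE) from edgeR's quasi-likelihood test, with p-values adjusted by the Benjamini-Hochberg method over all genes tested. The summed CPM of 8 neuron marker genes was 6170 to 6520 in WT NeuN+ and 740 to 831 in WT NeuN-. The reverse held for 6 astrocyte markers (294 to 358 against 2790 to 3310), 5 oligodendrocyte markers (115 to 119 against 5280 to 6110), 3 oligodendrocyte precursor markers (17.3 to 19.3 against 479 to 539), 5 microglia markers (84.0 to 86.0 against 489 to 577) and 3 endothelial markers (1.52 to 2.45 against 19.1 to 21.2). None of the listed markers was at 0 in every library. RNA of Mutyh was higher, not lower, in libraries labelled Mutyh-/- and DKO, with 9.88 to 11.5 CPM in Mutyh-/- NeuN+ libraries and 1.15 to 1.28 in those of WT, and Ogg1 RNA did not pass the test in any knockout (adjusted p = 0.916 for Ogg1 in Ogg1-/- NeuN+), so whole-gene counts do not check these labels. NeuN+ and NeuN- libraries never shared a sequencing lane, and lane and fraction cannot be told apart.

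The promoters of 4 genes are shown because these genes carry the results below: Mgmt, Brca1 and Xrcc5 differed most between the fractions, and Pcna had the smallest p among comparisons with WT. Each runs 5′ to 3′ on the gene's strand from 250 bases before to 50 bases after the RefSeq start on GRCm38.p6. Capitals mark a GC box (GGGCGG, or CCGCCC on the other strand) or a CCAAT box (CCAAT, or ATTGG on the other strand).
Mgmt, chr7:136894336-136894635, plus strand: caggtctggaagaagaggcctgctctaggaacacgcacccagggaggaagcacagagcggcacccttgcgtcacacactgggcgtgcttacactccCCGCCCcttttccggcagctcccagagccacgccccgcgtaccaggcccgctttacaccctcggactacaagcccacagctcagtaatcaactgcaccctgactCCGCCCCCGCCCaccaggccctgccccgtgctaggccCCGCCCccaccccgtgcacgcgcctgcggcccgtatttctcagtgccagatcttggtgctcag
Brca1, chr11:101551906-101552205, minus strand: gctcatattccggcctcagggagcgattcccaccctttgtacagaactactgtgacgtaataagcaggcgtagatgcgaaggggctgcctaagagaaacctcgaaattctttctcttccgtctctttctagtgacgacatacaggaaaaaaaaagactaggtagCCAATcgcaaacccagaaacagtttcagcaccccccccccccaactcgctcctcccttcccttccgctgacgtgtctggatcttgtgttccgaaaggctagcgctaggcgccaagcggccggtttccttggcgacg
Xrcc5, chr1:72307171-72307470, plus strand: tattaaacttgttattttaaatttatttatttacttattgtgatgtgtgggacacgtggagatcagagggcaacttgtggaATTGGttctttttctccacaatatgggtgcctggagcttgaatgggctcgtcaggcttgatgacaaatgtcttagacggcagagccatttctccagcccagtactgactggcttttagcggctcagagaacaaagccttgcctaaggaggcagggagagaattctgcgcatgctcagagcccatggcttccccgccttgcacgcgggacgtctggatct
Pcna, chr2:132253131-132253430, minus strand: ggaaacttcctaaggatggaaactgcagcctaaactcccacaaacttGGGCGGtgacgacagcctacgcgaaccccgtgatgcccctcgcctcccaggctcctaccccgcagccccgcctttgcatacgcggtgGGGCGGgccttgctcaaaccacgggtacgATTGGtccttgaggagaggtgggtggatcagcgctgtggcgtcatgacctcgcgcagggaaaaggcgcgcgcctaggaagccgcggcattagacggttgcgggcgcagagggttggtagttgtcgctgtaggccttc
The Mgmt window shown is the one at the start of the annotated gene. It held 4 GC boxes, 2 of them side by side, and no CCAAT box, whereas those of Brca1 and Xrcc5 held 1 CCAAT box each and no GC box. The Pcna window held 2 GC boxes and 1 CCAAT box. RefSeq gave a window for 29 of the 36 genes, 32 windows in all. A GC box was present in 22 of these 32 windows and in 35.7% of the 32851 windows of all genes, and a CCAAT box in 18 of 32 and in 37.4%. The E2F letters TTTCGCGC or TTTGGCGC, searched on both strands, were found in 1 of 32 windows, that of the mismatch recognition gene Msh3, and in 0.813% of all windows. Such matches are descriptions of letters and not measured binding.

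Between the WT fractions, 3 of the 36 genes had both an adjusted p under 0.05 and a log2 fold change beyond 1 in size, and all 3 were higher in NeuN-. These were Mgmt, the homologous recombination gene Brca1 and the end-joining gene Xrcc5. None was higher in NeuN+ by that rule. Of all 33523 genes tested, 21.3% were called higher in NeuN+ and 21.6% higher in NeuN-, so the share of repair genes past the fold limit was below that of genes at large in both directions. The median SE was 0.0661 over the 36 genes and 0.163 over all genes tested. The part of this difference in precision in the lower share was not tested. Without the fold limit, 7 of the 36 were higher in NeuN+ and 20 higher in NeuN-, against 36.1% and 36.3% of all genes. The median log2 difference, NeuN+ against NeuN-, was -0.36 over the 36 genes and -0.01 over all genes tested, and the median absolute difference was 0.50 and 0.84. In these bulk libraries, fewer cells of a type and less RNA per cell cannot be told apart.

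**Figure D1:**
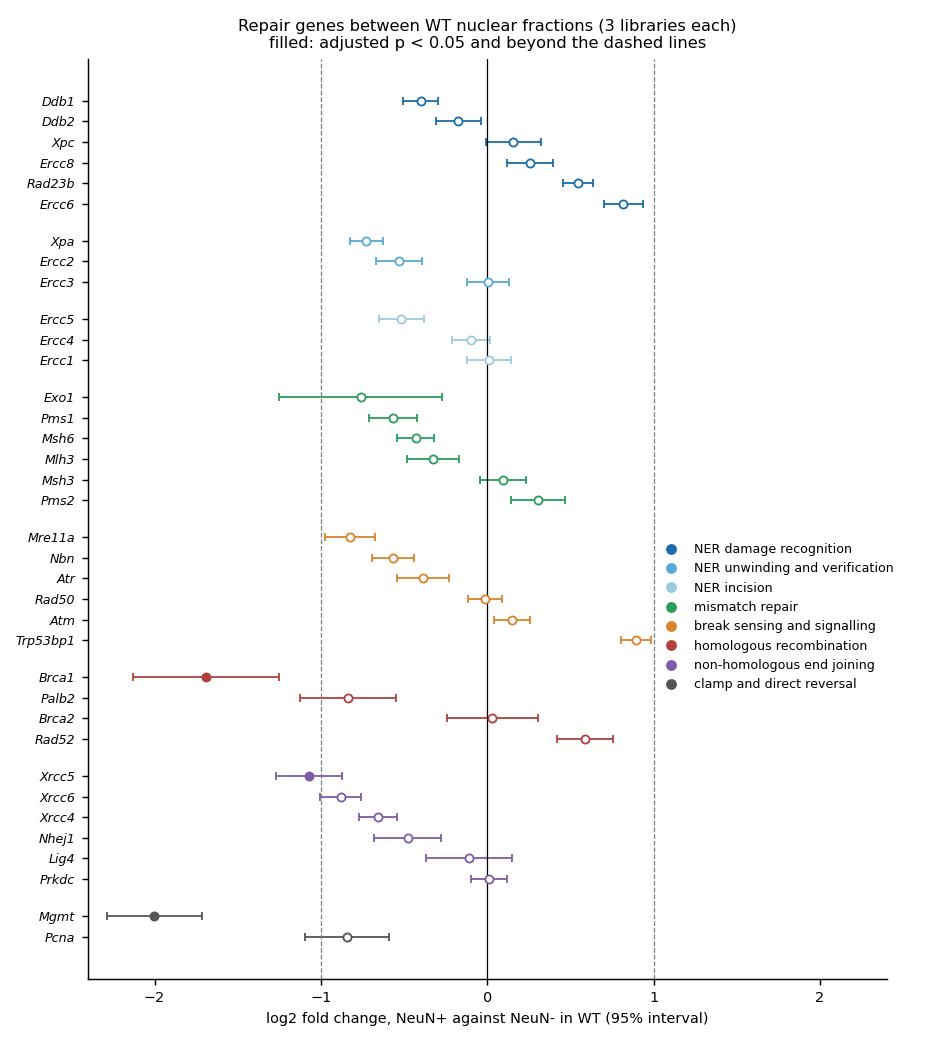
Log2 fold change between WT NeuN+ and NeuN- libraries (x axis, with 95% interval) for the 36 repair genes, grouped and coloured by role. Filled points are Mgmt, Brca1 and Xrcc5, which lie beyond the dashed line at -1, while Trp53bp1 at 0.89 and Ercc6 at 0.82 lie farthest to the right.

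Mgmt encodes the methyltransferase that takes alkyl groups off guanine in a single step. It lies on chromosome 7 (136894614 to 137130266, plus strand). Its level was 3.26, 3.26 and 2.92 CPM in the WT NeuN+ libraries and 12.7, 13.3 and 11.8 CPM in the WT NeuN- libraries. Every NeuN- library was thus above every NeuN+ library, and NeuN+ stood at 0.25 times the NeuN- level. The log2 fold change of Mgmt was -2.0 (SE 0.14, edgeR quasi-likelihood adjusted p = 8.06e-12), and it lay between -2.0 and -1.81 over the 4 genotypes.

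Brca1, a scaffold and ubiquitin ligase of homologous recombination, was among the lowest of the 36 genes. It lies on chromosome 11 (101488764 to 101551955, minus strand). Its level was 0.616, 0.956 and 0.661 CPM in WT NeuN+ (38 to 59 counts) and 2.56, 2.17 and 2.49 CPM in WT NeuN- (157 to 255 counts). The groups did not overlap, with a log2 fold change of -1.69 (SE 0.21, edgeR quasi-likelihood adjusted p = 1.97e-07). Its partner gene Palb2, which bridges Brca1 and Brca2, was also higher in NeuN-, with a log2 fold change of -0.84 (adjusted p = 1.15e-05) that passed the fold limit in Mutyh-/- alone of the 4 genotypes (-1.05). Its interaction between fraction and genotype was not called. Brca2, which loads the recombinase onto single-stranded DNA, was in WT at 11.2 ± 0.778 CPM in NeuN+ and 11.0 ± 0.415 in NeuN- (SD, n = 3), and the 95% interval of the log2 difference ran from -0.24 to 0.30. Rad52, which anneals single strands, was on the other side, at 24.8 ± 0.570 CPM in NeuN+ and 16.5 ± 0.596 in NeuN- (log2 fold change 0.59, SE 0.08, adjusted p = 8.51e-07).

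Xrcc5 and Xrcc6 encode Ku80 and Ku70, the ring that binds broken ends first. Xrcc5 lies on chromosome 1 (72307421 to 72394952, plus strand) and was at 23.2, 23.4 and 22.0 CPM in NeuN+ libraries of WT and at 48.8, 48.7 and 46.5 CPM in the NeuN- ones. The log2 fold change of Xrcc5 was -1.07 (SE 0.10, edgeR quasi-likelihood adjusted p = 9.02e-10). Xrcc6 had the highest CPM of the 36 genes in NeuN-, with 123, 123 and 129 CPM against 65.8, 67.6 and 69.7 CPM in NeuN+. All NeuN- libraries of both genes were above all NeuN+ libraries. The difference of Xrcc6, -0.88 (SE 0.06, adjusted p = 5.88e-12), stayed inside the fold limit in WT and passed it in Mutyh-/- (-1.12). Of the other end-joining genes, Xrcc4, the scaffold of the ligase, and Nhej1, which aligns ends with it, were higher in NeuN- (log2 fold changes -0.66 and -0.48). For Prkdc, the kinase that Ku recruits, and Lig4, the ligase, the WT difference did not pass the test, with 95% intervals of -0.10 to 0.12 for Prkdc and -0.37 to 0.15 for Lig4.

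**Figure D2:**
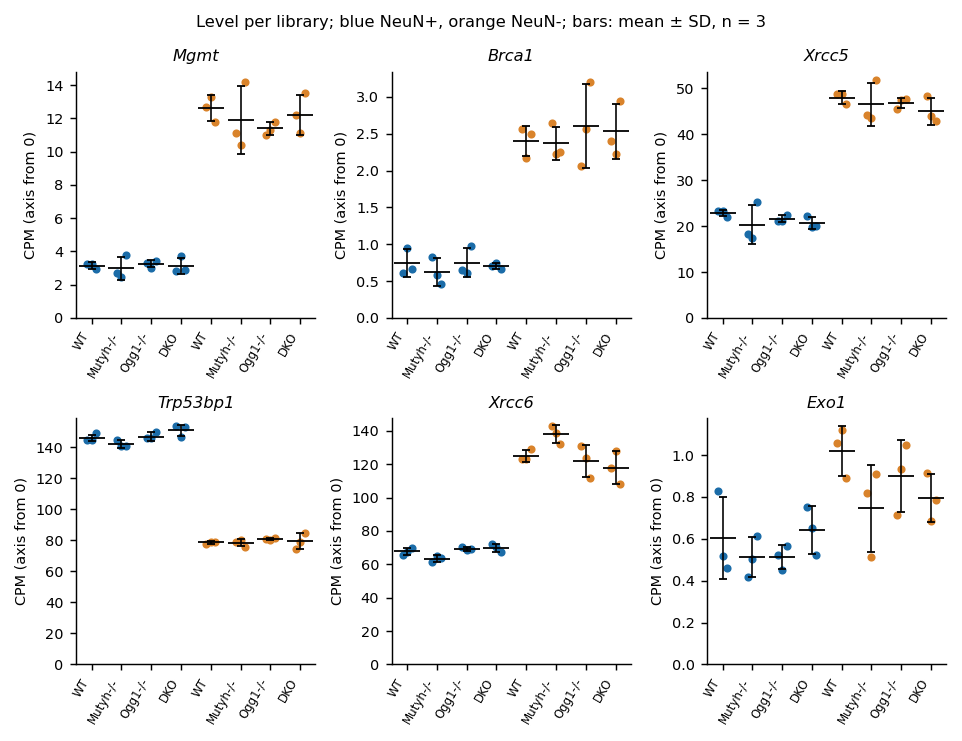
CPM (y axis, from 0) of 6 repair genes in each of the 24 libraries, by genotype, with NeuN+ in blue and NeuN- in orange and bars for mean ± SD (n = 3). Mgmt, Brca1, Xrcc5 and Xrcc6 are higher in every NeuN- group, Trp53bp1 in every NeuN+ group, and Exo1 is at or below 1.12 CPM in every library.

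Among the genes of break sensing and signalling, Trp53bp1 had the highest CPM of all 36 genes in NeuN+. It encodes 53BP1, which gathers on chromatin around a break and favours end joining, and lies on chromosome 2 (121193281 to 121271407, minus strand). It was at 145, 145 and 149 CPM in NeuN+ and at 77.6, 79.2 and 79.2 CPM in NeuN- libraries of WT, without overlap. The log2 fold change of Trp53bp1 was 0.89 (95% interval 0.80 to 0.99, edgeR quasi-likelihood adjusted p = 1.66e-14), short of the fold limit. Its exons share 2130 bases with Tubgcp4 on the opposite strand, and whether counting used the strand is not given in the sources used here. Atm, the kinase that signals breaks, was 0.15 higher in NeuN+ on the log2 scale (adjusted p = 0.0159). Mre11a and Nbn, of the complex that recruits Atm to breaks, were both higher in NeuN- (-0.83 and -0.57), whereas the difference of Rad50, its remaining subunit, was -0.01 (95% interval -0.12 to 0.09). Atr, the kinase that answers to single-stranded DNA, was higher in NeuN- (-0.39).

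Genes of nucleotide excision repair differed in both directions. Of the 6 recognition genes, 3 were higher in NeuN+ and 2 higher in NeuN- at an adjusted p under 0.05 of any fold. By that rule, 36.1% of all genes were higher in NeuN+ and 36.3% higher in NeuN-. Ercc6, whose protein CSB binds stalled RNA polymerase, had a log2 fold change of 0.82 (SE 0.06, adjusted p = 1.08e-11), and Ercc8, the CSA subunit of the same transcription-coupled branch, one of 0.26 (adjusted p = 0.00144). Rad23b, the partner of Xpc in the genome-wide branch, was at 0.55 (adjusted p = 7.6e-11), while Xpc itself, at 21.0 ± 0.624 CPM in NeuN+ and 18.9 ± 0.917 in NeuN-, did not pass the test (adjusted p = 0.0792). Ddb1 and Ddb2, which form the ultraviolet damage sensor, were both higher in NeuN- (-0.40 and -0.18). In the next steps, Xpa, which verifies the lesion, Ercc2, a helicase of TFIIH, and Ercc5, the nuclease on the 3′ side, were higher in NeuN- (-0.73, -0.53 and -0.52). The other TFIIH helicase Ercc3 and the 5′ nuclease pair Ercc1 and Ercc4 did not pass the test, with 95% intervals of -0.12 to 0.13 for Ercc3, -0.12 to 0.14 for Ercc1 and -0.21 to 0.01 for Ercc4.

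Of the 6 mismatch repair genes, 4 were higher in NeuN- at an adjusted p under 0.05 of any fold, a rule that 36.3% of all genes met. These were Pms1 (-0.57), Mlh3 (-0.33), Msh6 (-0.43) and Exo1 (-0.76), the last being the exonuclease that removes the stretch with the mismatch. Pms2, a nicking subunit, was higher in NeuN+ (0.30), but its exons share bases with 2 genes of the same strand, Gm42421 and Rsph10b. Msh3 did not pass the test (0.10, 95% interval -0.04 to 0.24). Exo1 had the lowest CPM of the 36 genes in both fractions, with 0.827, 0.518 and 0.462 CPM in NeuN+ and 1.06, 1.12 and 0.891 CPM in NeuN- libraries of WT. The fractions of Exo1 did not overlap (SE 0.24, adjusted p = 0.00639), but the NeuN+ values rested on 28 to 51 counts. Leaving out WT NeuN+ replicate 1, which had the highest of them, moved the difference from -0.76 to -1.06, past the fold limit.

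Pcna, the clamp that holds DNA polymerases during replication and repair synthesis, was in WT at 3.12 ± 0.399 CPM in NeuN+ and 5.60 ± 0.560 in NeuN- (log2 fold change -0.84, SE 0.12, adjusted p = 1.74e-06). It passed the fold limit in Mutyh-/- (-1.04) and DKO (-1.22). Levels were also counted per kilobase of annotated exon. This scale is rough, since the lengths join the exons of all transcripts and come from another annotation than the counts. On it, Xpa was highest in WT in both fractions (21.6 CPM per kb in NeuN+ and 35.7 in NeuN-), followed by Xrcc6 (15.1 and 27.9). Exo1 was lowest (0.0716 and 0.122).

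The fraction difference was also measured in each knockout. For 31 of the 36 genes (86.1%) the log2 difference had the same sign in WT, Mutyh-/-, Ogg1-/- and DKO, as it had for 86.7% of all genes. An adjusted p under 0.05 in all 4 was found for 25 (69.4%), against 62.0% of all genes. The genotypes do not share libraries in this comparison. With the fold limit, 6 genes were called in Mutyh-/-, 3 in Ogg1-/- and 5 in DKO, where Ercc6 was higher in NeuN+ and the remaining 4 higher in NeuN-. Mgmt, Brca1 and Xrcc5 were called in all 4 genotypes, 8.33% of the 36 genes against 36.3% of all genes. The shares of all genes called higher in NeuN+ and in NeuN- were 21.8% and 22.1% in Mutyh-/-, 21.7% and 22.2% in Ogg1-/-, and 20.8% and 23.6% in DKO. Across the 36 genes, the WT log2 difference had a correlation of r = -0.14 (Spearman's rho -0.08) with the log2 length of the gene and of r = 0.39 (rho 0.44) with the log2 length of its exons, given as a description of genes that share the same libraries.

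Lists of further genes of the same routes were measured in the same fit, where 21.3% of all genes were called higher in NeuN+ and 21.6% higher in NeuN-. Of 14 other nucleotide excision repair genes, such as the remaining TFIIH subunits, none passed the fold limit between the WT fractions. At an adjusted p under 0.05 of any fold, 7 were higher in NeuN+ and 3 in NeuN- (median 0.06). Without the fold limit, 36.1% of all genes were higher in NeuN+ and 36.3% higher in NeuN-. Of 15 genes of repair synthesis and gap filling, 5 were called higher in NeuN- and none higher in NeuN+ (median -0.70). These were Pole, Pold1, Pold2, Rpa2 and Lig1, which encode polymerase, single-strand binding and ligase subunits. Of 26 other break repair genes, 7 were called higher in NeuN-, led by the recombination gene Xrcc3 (-2.17), and 1 higher in NeuN+, Polq, the polymerase of an alternative end-joining route (2.28, adjusted p = 8.89e-15). Of 12 genes of S phase and division, 7 were called higher in NeuN- (median -1.13), among them Mcm3 (-5.24), a replicative helicase subunit, and Top2a (-4.45).

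Each knockout was then compared with WT within each fraction, where a called gene had an adjusted p under 0.05 and a log2 fold change beyond 0.5 in size. None of the 36 genes was called in any of the 6 comparisons by edgeR's quasi-likelihood test. In NeuN+, the share of all 30132 genes called was 0.428% in Mutyh-/-, 0.574% in Ogg1-/- and 0.302% in DKO. In NeuN-, it was 0.273%, 0.229% and 0.116% of 31863 genes. A count of 0 of 36 is thus near the background. At an unadjusted p under 0.05, 9, 6 and 6 of the 36 genes stood out in Mutyh-/-, Ogg1-/- and DKO of NeuN+, against 18.7%, 12.3% and 13.5% of all genes, and 3, 3 and 3 in NeuN-, against 13.7%, 11.8% and 12.4%. The intervals were narrower than for most genes. In NeuN+, the 95% interval lay within 0.5 of 0 on the log2 scale for 31, 32 and 31 of the 36 genes, that is 86.1%, 88.9% and 86.1%, compared with 54.4%, 58.0% and 56.8% of all genes. In NeuN- it did so for 34 of 36 in each knockout, and the exceptions there were Exo1 in all 3 knockouts, Brca2 in Mutyh-/- and DKO, and Pcna in Ogg1-/-.

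**Figure D3:**
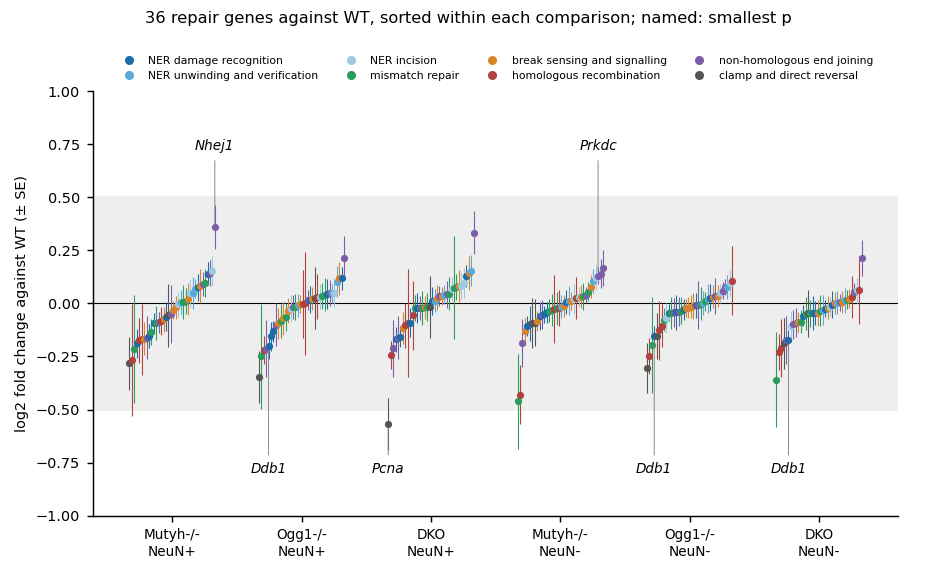
Log2 fold change against WT (y axis, ± SE) of the 36 repair genes in each knockout and fraction, sorted within each comparison and coloured by role, with the band of ±0.5 in grey. Pcna in DKO NeuN+, at -0.57, is the only point outside the band, and the gene named in each column had the smallest p there.

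Pcna in NeuN+ of DKO had the smallest p among the comparisons with WT. The gene lies on chromosome 2 (132249162 to 132253314, minus strand). The WT NeuN+ libraries were at 3.23, 3.45 and 2.68 CPM, Mutyh-/- at 2.33, 2.89 and 2.47, Ogg1-/- at 2.54, 2.51 and 2.4, and DKO at 2.22, 2.28 and 1.88. All DKO and all Ogg1-/- libraries were below all WT libraries, while 1 Mutyh-/- library lay within the WT range. The log2 fold change of Pcna in DKO was -0.57 (SE 0.12, 95% interval -0.83 to -0.30, edgeR quasi-likelihood adjusted p = 0.0623), so it missed the threshold. It passed with edgeR's likelihood ratio test (adjusted p = 0.00487), with the DESeq2 Wald test (adjusted p = 0.0102), without the filter on low counts (adjusted p = 0.0232) and with a replicate block (adjusted p = 0.0295). It missed the threshold with RLE scaling, with a filter of at least 10 counts in every library, and in a fit of only the 6 libraries compared. Without each of the 6 libraries in turn, the value ranged from -0.66 to -0.48 and missed the threshold each time. In the single knockouts the log2 fold change of Pcna was -0.28 in Mutyh-/- (adjusted p = 0.240) and -0.34 in Ogg1-/- (adjusted p = 0.233), and DKO against Mutyh-/- gave -0.29 (adjusted p = 0.710).

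In NeuN-, Pcna was at 5.07, 6.19 and 5.55 CPM in WT, 4.95, 4.59 and 4.13 in Ogg1-/- and 5.32, 5.28 and 4.19 in DKO. The Ogg1-/- libraries were below those of WT (-0.30, adjusted p = 0.334), and the DKO libraries overlapped with them. The effect of DKO on Pcna differed between fractions by -0.37 (SE 0.17, adjusted p = 0.519 for the interaction), which missed the threshold. The Pcna counts were 133 to 217 in NeuN+. Its processed pseudogenes Pcna-ps1 on chromosome X and Pcna-ps2 on chromosome 19 held 2 to 16 and 2 to 13 counts there, and how reads that fit several places were counted is not given in the sources used here. Of the 12 genes of S phase and division, 9 were tested in NeuN+ and none was called in DKO, and 1 was higher at an unadjusted p under 0.05. Of 15 genes of repair synthesis and gap filling, none was called in DKO NeuN+ (smallest adjusted p = 0.129). Neuron markers summed to 6580 to 6920 CPM in DKO NeuN+ and to 6170 to 6520 in WT, although 5 of the 8 were lower in DKO (median log2 fold change -0.05, with 1 higher and 3 lower at an unadjusted p under 0.05). Markers of other cells, where Pcna was higher, were mostly lower in DKO NeuN+. The median was -0.43 for oligodendrocyte markers (4 of 5 lower, 3 of them at an unadjusted p under 0.05), -0.47 for precursor markers (3 of 3 lower, 2 of them at that p) and -0.25 for astrocyte markers (6 of 6 lower, 1 of them at that p). It was -0.03 for the 4 microglia markers tested and -0.19 for the 2 endothelial ones. Their summed CPM overlapped with WT for oligodendrocytes (114 to 129 against 115 to 119), precursors (16.8 to 17.6 against 17.3 to 19.3) and astrocytes (271 to 326 against 294 to 358). The part of these shifts in the level of Pcna was not tested.

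Ddb1, the adaptor of the ubiquitin ligase that handles ultraviolet damage, had the smallest p in 3 of the 6 comparisons. It lies on chromosome 19 (10605327 to 10629819, plus strand), where its exons share 328 bases with Tkfc on the opposite strand. In NeuN+ it was at 42.5, 46.6 and 45.0 CPM in WT and 39.7, 39.9 and 38.3 CPM in Ogg1-/- (-0.20, SE 0.06, edgeR quasi-likelihood adjusted p = 0.113). In NeuN- it was at 61.0, 57.7 and 58.4 CPM in WT, 54.8, 51.8 and 53.4 in Ogg1-/- (-0.16, adjusted p = 0.229) and 52.6, 54.0 and 51.3 in DKO (-0.17, adjusted p = 0.204). In each of these 3 comparisons the knockout libraries were below the WT libraries without overlap, by a difference that did not pass the adjusted test. In Mutyh-/- the log2 fold change of Ddb1 was -0.16 in NeuN+ and -0.10 in NeuN-. All these comparisons share their fraction's WT libraries.

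**Figure D4:**
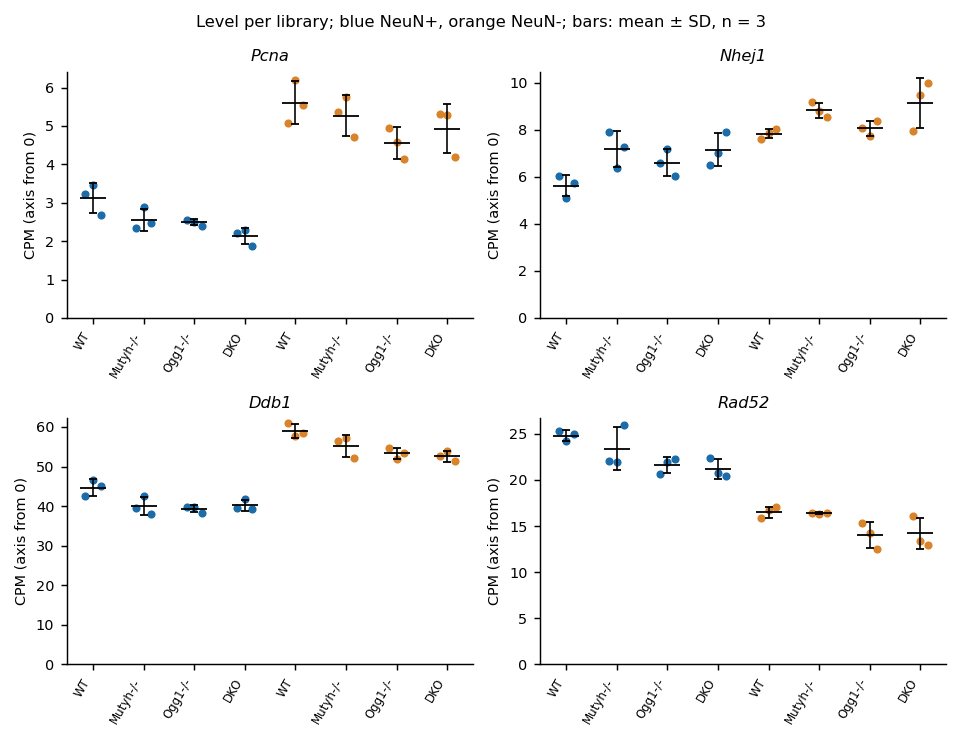
CPM (y axis, from 0) of Pcna, Nhej1, Ddb1 and Rad52 in each of the 24 libraries, by genotype, with NeuN+ in blue, NeuN- in orange and bars for mean ± SD (n = 3). In NeuN+, Pcna lies between 1.88 and 2.28 CPM in DKO and between 2.68 and 3.45 in WT.

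Nhej1, also known as XLF, had the smallest p in Mutyh-/- NeuN+. It lies on chromosome 1 (74967139 to 75125200, minus strand). WT NeuN+ libraries were at 6.02, 5.12 and 5.75 CPM and those of Mutyh-/- at 7.90, 6.39 and 7.27 CPM, without overlap (0.36, SE 0.10, edgeR quasi-likelihood adjusted p = 0.101). DKO was at 6.51, 7.03 and 7.93 CPM in NeuN+ (0.33, adjusted p = 0.169). In NeuN-, Nhej1 was at 7.62, 7.87 and 8.03 CPM in WT, 9.18, 8.81 and 8.54 in Mutyh-/- and 7.94, 9.49 and 9.99 in DKO. Prkdc had the smallest p in Mutyh-/- NeuN-, where it was at 84.4, 84.5 and 81.1 CPM against 74.5, 75.9 and 76.6 in WT (0.13, SE 0.04, adjusted p = 0.221). It lies on chromosome 16 (15637866 to 15842235, plus strand). Neither gene of end joining passed the adjusted test.

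Rad52 and Brca2 were chosen after their values were seen. Rad52 lies on chromosome 6 (119902698 to 119922828, plus strand), 6.57 Mb from Ogg1. In NeuN+ it was at 25.3, 24.2 and 25.0 CPM in WT, 22.1, 22.0 and 26.0 in Mutyh-/-, 20.6, 21.9 and 22.3 in Ogg1-/-, and 22.4, 20.8 and 20.4 in DKO. In NeuN- it was at 15.9, 16.7 and 17.1 CPM in WT, 16.4, 16.3 and 16.4 in Mutyh-/-, 15.3, 14.2 and 12.5 in Ogg1-/-, and 16.1, 13.4 and 13.0 in DKO. Libraries without Ogg1 were thus below those of WT in both fractions, apart from 1 DKO library in NeuN-. In NeuN+, the Mutyh-/- libraries at 22.1 and 22.0 CPM, which are labelled as keeping Ogg1, were below all WT libraries too. The remaining Mutyh-/- library, at 26.0 CPM, was above them. The log2 fold changes of Rad52 were -0.22 and -0.24 in Ogg1-/- and DKO of NeuN+ (adjusted p = 0.149 and 0.125) and -0.25 and -0.23 in NeuN- (adjusted p = 0.269 and 0.318). Whether its position bears on its level was not tested. In NeuN-, astrocyte markers summed to 3250 to 4110 CPM in Ogg1-/- and 3470 to 3630 in DKO, compared with 2790 to 3310 in WT. In each of these knockouts 6 of 6 were higher than in WT, 4 of them at an unadjusted p under 0.05. Of these, 1 was called in Ogg1-/- (edgeR quasi-likelihood adjusted p = 0.0483) and 0 in DKO. Oligodendrocyte markers summed to 4520 to 4920 and 3850 to 5040 CPM, compared with 5280 to 6110. In each knockout 5 of 5 were lower, 3 of them at an unadjusted p under 0.05. Neuron markers, which like Rad52 were higher in NeuN+ of WT, were lower than in WT NeuN- for 7 of 8 genes in Ogg1-/- (median log2 fold change -0.24, 4 of them at an unadjusted p under 0.05) and 8 of 8 in DKO (median -0.27, 5 of them at that p). They summed to 688 to 768 and 665 to 748 CPM, compared with 740 to 831 in WT. The part of these shifts in the levels of Rad52 and Ddb1 in NeuN- was not tested.

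The libraries were also set against each other by the presence of each glycosylase, a comparison added after the values above were seen, with 6 libraries on each side and no fold limit. None of the 36 genes passed by edgeR's quasi-likelihood test. The shares of all genes with an adjusted p under 0.05 were 0.996% in NeuN+ and 0.744% in NeuN- for Ogg1, and 0.514% and 0.217% for Mutyh. Rad52 had the smallest p for Ogg1 in both fractions, with a log2 fold change of -0.19 in NeuN+ (SE 0.05, adjusted p = 0.0756) and -0.23 in NeuN- (SE 0.06, adjusted p = 0.114). With the DESeq2 Wald test these adjusted p-values were 0.018 and 0.03. For Mutyh, Nhej1 had the smallest p in both fractions (0.24, adjusted p = 0.165, and 0.17, adjusted p = 0.414).

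Mutyh-/- replicate 3 stood apart from replicates 1 and 2 for several genes in both fractions. Brca2 was at 8.88, 8.48 and 12.2 CPM in Mutyh-/- NeuN+ and at 7.08, 7.05 and 10.4 CPM in Mutyh-/- NeuN-, compared with 11.2, 11.2 and 10.5 CPM in WT NeuN-. Xrcc5 was at 18.2, 17.5 and 25.2 CPM in Mutyh-/- NeuN+, and Mgmt at 11.1, 10.4 and 14.2 CPM in Mutyh-/- NeuN-. With all libraries the log2 fold change of Brca2 in Mutyh-/- NeuN- was -0.43 (SE 0.14, edgeR quasi-likelihood adjusted p = 0.224). Without replicate 3 it was -0.64 (adjusted p = 0.013) and passed, while 1.35% of all genes were called, compared with 0.273% with all libraries. In NeuN+, leaving out Mutyh-/- replicate 3 moved Brca2 from -0.17 (adjusted p = 0.403) to -0.35 (adjusted p = 0.019) and Xrcc5 from -0.16 (adjusted p = 0.419) to -0.34 (adjusted p = 0.0118), both inside the fold limit. Mgmt in NeuN- moved from -0.09 to -0.24 (adjusted p = 0.171). Brca2, Xrcc5 and Mgmt, and the library left out, were picked with their values in view. Some marker sums of replicate 3 stood apart as well. In Mutyh-/- NeuN-, replicates 1 to 3 had 3370, 3740 and 2850 CPM for astrocyte markers and 5930, 5720 and 4860 for oligodendrocyte markers. Neuron markers were at 731, 746 and 751 there, and at 7000, 7240 and 6590 in Mutyh-/- NeuN+. The part of these shifts in the gene levels was not tested.

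The double knockout was compared with each single knockout, and none of the 36 genes was called. The shares of all genes called were 0.139% against Mutyh-/- and 0.216% against Ogg1-/- in NeuN+, and 0.122% and 0.132% in NeuN-. At an unadjusted p under 0.05 there were 4, 1, 3 and 0 of the 36 genes in these comparisons, against 6.86%, 4.26%, 11% and 4.34% of all genes. The smallest p belonged to Xrcc6 in DKO against Mutyh-/- of NeuN- (-0.23, SE 0.07, adjusted p = 0.283), where Mutyh-/- was at 143, 139 and 132 CPM and DKO at 118, 128 and 108. The test of whether a genotype effect differed between the fractions called none of the 36 genes, while 0.0209%, 0.0537% and 0.0567% of all genes passed it for Mutyh-/-, Ogg1-/- and DKO. Its counts at an unadjusted p under 0.05 were 1, 0 and 4 of 36, against 8.58%, 7.09% and 9.4% of all genes. Xrcc6 gave the value for Mutyh-/- (-0.24, adjusted p = 0.402).

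Of the 67 further genes listed, 1 was called against WT, Cetn2, and 1 passed the adjusted p alone, Rad54l. Cetn2 encodes centrin 2, which binds Xpc together with Rad23b. It was at 2.82, 2.92 and 2.53 CPM in WT NeuN+, 1.75, 1.63 and 1.81 in Ogg1-/- and 1.99, 1.43 and 1.55 in DKO, without overlap. It fell by 0.69 in Ogg1-/- (SE 0.13, edgeR quasi-likelihood adjusted p = 0.0234) and by 0.75 in DKO (SE 0.13, adjusted p = 0.0236) on the log2 scale. The call was lost without any 1 of the 6 libraries in Ogg1-/- (adjusted p = 0.055 to 0.134), and in DKO without any except DKO replicate 1 (adjusted p = 0.0568 to 0.150). In the same comparisons its partner Rad23b was at -0.13 and -0.16 (adjusted p = 0.252 and 0.170). Cetn2 was also lower without overlap in Mutyh-/- NeuN+ (-0.37, adjusted p = 0.155) and in the 3 knockouts of NeuN- (-0.34, -0.48 and -0.24), where no test was passed. Rad54l, a motor protein of homologous recombination, lies 0.684 Mb from Mutyh on chromosome 4. It was at 5.35, 5.49 and 5.61 CPM in WT NeuN+ and 3.98, 4.01 and 4.42 in Mutyh-/- (-0.40, SE 0.08, adjusted p = 0.0464, and 0.0683 with a replicate block), but at 5.26, 5.40 and 4.70 in DKO (-0.12, adjusted p = 0.579). No gene of the 4 further lists passed an adjusted p under 0.05 against WT in NeuN-. Of the 36 genes, 16 share exon bases with another annotated gene, and the counts of these are uncertain to that extent.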

How the data were processed

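Nuclear RNA from sorted hippocampal nuclei was prepared with the SMARTer Stranded Total RNA-Seq kit. The deposited values are raw counts per gene, made by the authors with HISAT2 2.1.0 on GRCm38, SAMtools 1.10 and featureCounts on Ensembl 102, with FastQC 0.11.9 for quality, per the study's methods and the submitters' processing notes. Whether featureCounts used strand, and how it treated overlapping genes and reads with several places, is not given in the sources used here. Strand-blind counting would add reads of overlapping antisense genes.

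Groups followed the sample labels, and the age and the knockouts are as labelled. Counts were tested in R 4.3.3 with edgeR 4.0.16 (filterByExpr, TMM, glmQLFit, glmQLFTest), with 1 fit for the 12 NeuN+ libraries, 1 for the 12 NeuN- libraries and 1 for all 24. Genes called passed a Benjamini-Hochberg adjusted p under 0.05 over all genes tested and an absolute log2 fold change above 0.5 (genotypes) or 1 (fractions), or the adjusted p alone (interactions and comparisons by glycosylase). Intervals are 95% intervals of the fit and cover spread between libraries. Totals of 56563586 to 96192142 counts set the precision. The biological coefficient of variation was 0.0823, 0.124 and 0.105 in the 3 fits. The scripts were tested on simulated data. DESeq2 1.42.0, other filters and scalings, a replicate block and leaving out each library were alternatives. Values in every library were given for repair genes called in a comparison with WT or in an interaction, for the smallest p in each comparison with WT, for at most 4 called genes in each direction between the WT fractions, and for the highest and lowest mean CPM in each WT fraction. Other genes given by library were picked with their values in view. The repair genes and all lists were chosen with earlier results of these data known. Positions are from GENCODE vM21 on GRCm38, and promoters from RefSeq.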

Additional observations from a re-analysis of the deposited data

How the results depend on the processing

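Of 314 recomputed counts of called repair genes, 299 were within 1.5 times the reported count. Only the comparisons between fractions had reported counts above 0. A reported 0 could be matched only by another 0, so this share is not a measure of stability. Of the 46 results recomputed, 21 were such counts. The others were log2 fold changes, none of which turned its direction. Among 352 recomputed log2 fold changes, 327 kept direction and side of the threshold. In DKO against WT in NeuN+, 1 of the 36 genes (Pcna) was called in 4 of 8 settings apart from leaving out libraries, in place of 0. These were the likelihood ratio test, the DESeq2 Wald test, no low-count filter and the replicate block. The shares of all genes called in these 4 settings are not given here, so the count cannot be set against them. Without the fold limit, 27 genes differed between the fractions in WT, 26 in Mutyh-/-, 29 in Ogg1-/- and 28 in DKO. By that rule, 12086 of all 33523 genes were higher in NeuN+ and 12173 higher in NeuN- in WT. These numbers were 12032 and 12428 in Mutyh-/-, 12100 and 12488 in Ogg1-/-, and 11940 and 12817 in DKO. By presence of Ogg1, 2 genes (Pcna and Rad52) passed in NeuN+ with the likelihood ratio test and 1 (Rad52) with the DESeq2 Wald test, and in NeuN- 1 (Rad52) passed with the DESeq2 Wald test and 0 to 1 without each library in turn, the 1 being Rad52 without DKO replicate 1 (-0.28, adjusted p = 0.0337). Leaving out each library gave 0 to 1 gene for Mutyh-/- against WT in NeuN-, 0 to 1 by presence of Mutyh in NeuN- and 0 to 2 in NeuN+, and the genes were Brca2, Brca2, and Brca2 with Xrcc5, each time without Mutyh-/- replicate 3. Between fractions the count ranged over 3 to 4 genes for WT, 4 to 6 for Mutyh-/- and 4 to 5 for DKO, and it stayed at 3 for Ogg1-/-. For the counts by presence of a glycosylase and with libraries left out, the matching shares of all genes are not given beside them. These counts thus cannot be read as results about the repair genes. The cause of these shifts was not tested.

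Replicate numbers were shared between groups, and the correlations of their deviations from the group means were mixed. They were over 0.1 in 2 of 9 pairs with WT in NeuN+ and in 3 of 9 in NeuN-. With 3 libraries per group these correlations cannot show whether the numbers pair genotypes, so the replicate block is given only as an alternative. Between the fractions of a genotype all 12 were positive (0.002 to 0.341) and 8 were over 0.1, among them all 3 of DKO, and with the replicate block the counts between fractions stayed at 3 for WT and Ogg1-/-, 5 for DKO and 6 for Mutyh-/-. With the replicate block the log2 fold change of Pcna in DKO NeuN+ was -0.56 (adjusted p = 0.0295), and that of Rad54l in Mutyh-/- NeuN+ missed the threshold (adjusted p = 0.0683). In WT NeuN+, counts of 28 to 51 for Exo1 and 38 to 59 for Brca1 limit what their differences can show.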
